A study of Mus musculus with 8 samples.

Results

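Basement membrane, laminin-receptor and dystrophin complex genes were examined in RNA sequencing of ischemic tibialis anterior, a muscle of the lower leg of the mouse. The set held 35 genes of 24848 in the deposited tables, chosen by name with earlier results of these data known. It covered 5 collagen IV chains, the collagens XV and XVIII, 6 laminin chains, 2 nidogens, perlecan (Hspg2) and agrin (Agrn), nephronectin (Npnt) with its receptor chain Itga8, 7 other integrin chains, and 9 genes of the dystrophin complex. All 35 had a row in the tables and all 35 passed the filter on low counts, with 23 reads as the lowest count of any member in any library.

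The praliciguat group was 4 libraries from male Leprdb/db mice fed chow with 75 ppm praliciguat, a stimulator of soluble guanylate cyclase, the receptor for nitric oxide that makes cGMP. The placebo group was 4 libraries from male Leprdb/db mice fed the control chow. Both groups carried the leptin receptor defect of that strain, which makes mice obese and diabetic, and both had hind limb ischemia surgery. Diets began on day -3 and lasted 31 days, with muscle collected on day 28. The drug chow was meant to give the peak plasma level of 10 mg/kg/day by mouth. The labels used here give no age, hold no group without surgery or without the receptor defect, and do not tie a library to a mouse, so the p-values rest on the spread from library to library, part of which may be technical.

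A basement membrane is the thin sheet of matrix that wraps every muscle fibre, nerve bundle and capillary. Collagen IV and laminin each build a network, nidogens and perlecan tie the networks together, and agrin links laminin to the cell surface. Fibres hold on to this sheet through integrins and through dystroglycan, which dystrophin connects to the actin cytoskeleton inside the fibre. Loss of laminin alpha2, dystrophin or a sarcoglycan causes muscular dystrophy.

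No member was called by edgeR's quasi-likelihood test after adjustment over the 13569 genes tested, and neither was any other gene (0% lower and 0% higher). The lowest adjusted p among members was 0.0776, for Npnt. Limma-voom, an alternative, also called 0 of 35 members, beside 0.0147% of all genes lower and 0% higher. At an unadjusted p under 0.05, 6 of 35 members (17.1%) were lower with praliciguat, namely Npnt, Agrn, Itga6, Lama2, Itga5 and Itga3, against 3.78% of all genes tested. A single member, Sntb1, was higher, against 1.95% of all genes. In 4 of 35 members (11.4%), Npnt, Agrn, Itga6 and Lama2, every praliciguat library lay below every placebo library, against 2.54% of all genes. The reverse held for 0 members, against 1.32% of all genes. DESeq2, run as an alternative, called Npnt, Agrn and Itga6 lower, 3 of 35 members, against 0.84% of all genes lower and 0.111% higher. Because the members were chosen with earlier results of these data known, these shares describe the list and do not test it. The median log2 fold change of the 35 was -0.13, beside 0.02 over all genes tested. That median rested on single libraries: it was -0.026 without praliciguat replicate 2, -0.035 without placebo replicate 3, -0.084 without praliciguat replicate 1 and -0.27 without praliciguat replicate 3.

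The members with a log2 fold change below 0 were 24 of 35 (68.6%), beside 44.8% of all genes tested. By role these were 7 of 7 integrin chains, both nephronectin and Itga8, 5 of 6 laminin chains, 4 of 5 collagen IV chains, 3 of 4 nidogens and proteoglycans, 1 of 2 of the collagens XV and XVIII, and 2 of 9 dystrophin complex genes. The median was -0.29 for the integrins and 0.08 for the dystrophin complex. Integrin and dystrophin complex genes were not tested against each other.

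**Figure D1:**
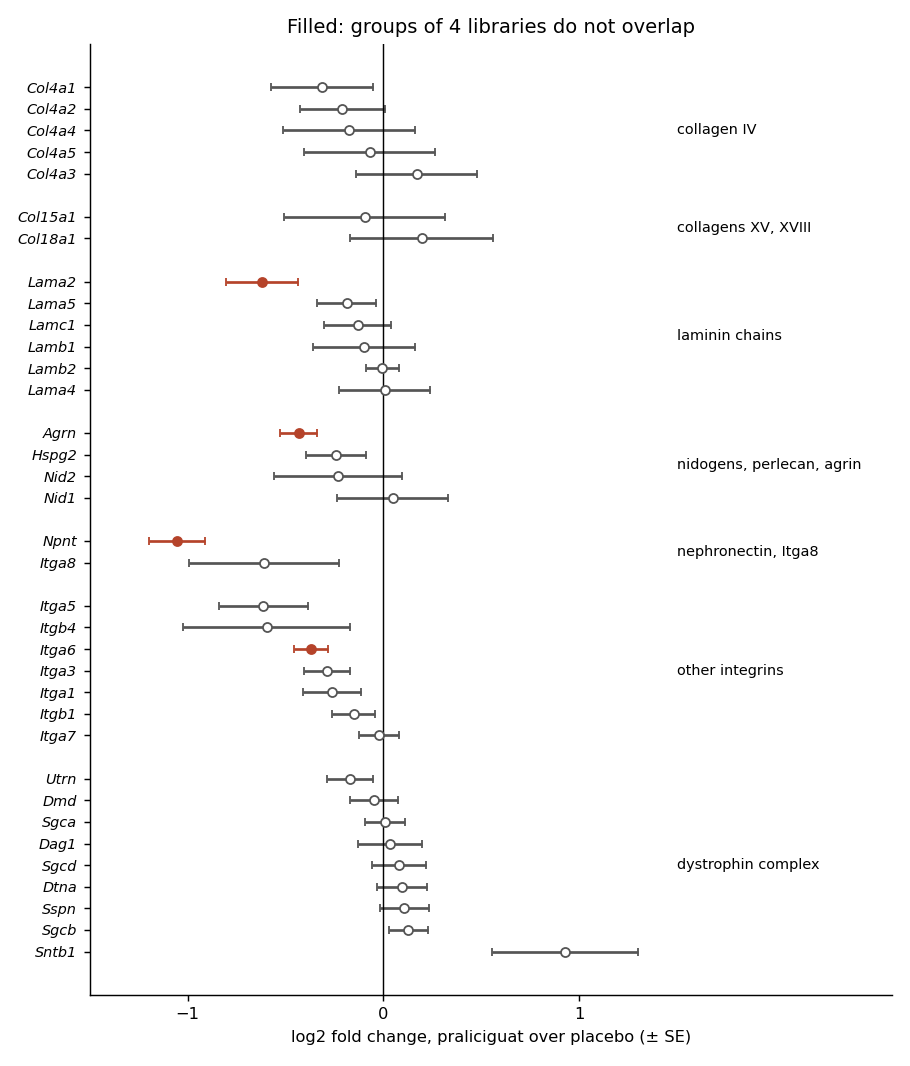
Log2 fold change of praliciguat over placebo for each of the 35 members by role, with its standard error (bars). Filled points are the 4 members, Lama2, Agrn, Npnt and Itga6, in which no praliciguat library reached the placebo range; all 4 lie left of 0.

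The libraries were not alike within a group. Total expected counts ran from 27271020 to 31896205 in praliciguat libraries and from 21099764 to 29635817 in placebo libraries. The first principal component, with 42.5% of the variance, set praliciguat replicate 3, placebo replicate 3 and praliciguat replicate 4 on one side of the other 5 libraries. The same 3 libraries held the 3 highest levels of Col15a1 and of Col18a1. Fibroblast markers (8 of 8 detected) summed to 706, 437, 3004 and 1042 TPM in praliciguat replicates 1 to 4, against 1097, 869, 1549 and 885 TPM in placebo replicates 1 to 4. Their part in the results below was not tested. In bulk muscle, fewer cells of a type and less RNA per cell cannot be told apart.

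**Figure D2:**
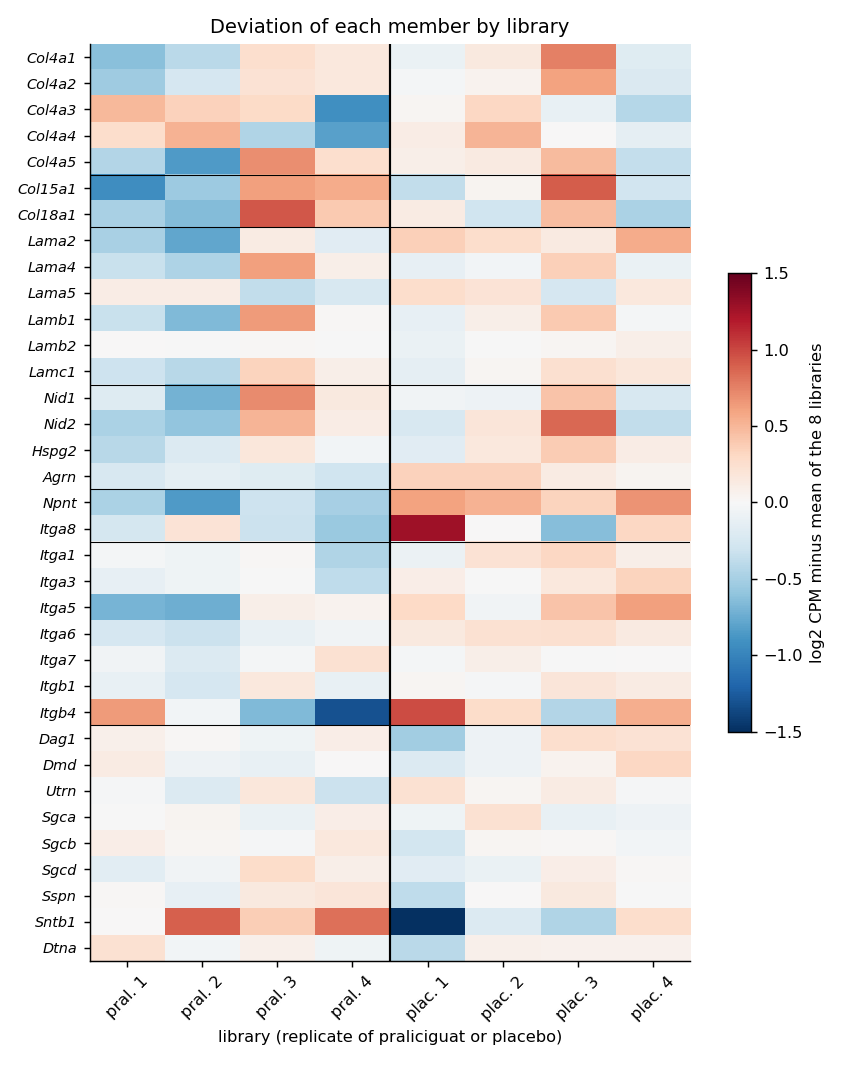
Deviation of each member (rows, grouped by role) from its own mean over the 8 libraries on the log2 CPM scale, for 4 praliciguat and 4 placebo libraries (columns). Most collagen, nidogen and laminin rows are high in praliciguat replicate 3 and placebo replicate 3 and low in praliciguat replicates 1 and 2, whereas the rows of Npnt and Itga6 are low in all 4 praliciguat libraries.

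Per length, collagen IV was the most abundant matrix component of the set. Col4a1 and Col4a2 encode the chains of the collagen IV trimer found in most basement membranes. Col4a1 reached 116 ± 38.2 TPM with praliciguat and 148 ± 51.4 TPM in placebo (SD, n = 4 each), and Col4a2 98.3 ± 27.4 and 116 ± 33.8 TPM. The chains of the kidney-type network, Col4a3, Col4a4 and Col4a5, summed to 2.08 ± 0.535 TPM with praliciguat and 2.14 ± 0.374 TPM in placebo.

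By library, Col4a1 had 296, 345, 542 and 509 CPM in the praliciguat libraries, against 424, 506, 768 and 403 CPM in the placebo libraries. The groups overlapped widely, with placebo replicate 3 highest. The log2 fold change was -0.31 ± 0.26 (SE; edgeR adjusted p = 0.984), and ran from -0.45 without praliciguat replicate 3 to -0.076 without placebo replicate 3. Col4a2 had 254, 307, 427 and 409 CPM with praliciguat, against 359.8, 382, 557 and 317 CPM in placebo, and a log2 fold change of -0.21 ± 0.22 (edgeR adjusted p = 0.984). The range for Col4a2 with 1 library left out was -0.32 to -0.021, at its ends without the same libraries. Both genes put the 8 libraries in the same order of CPM. Col4a1 stood at 1.14, 1.09, 1.24 and 1.21 times Col4a2 in praliciguat libraries, against 1.15, 1.29, 1.34 and 1.24 times in placebo libraries. This ratio differed by -0.10 on the log2 scale (p = 0.143 in an exact two-sided permutation test; adjusted p = 0.429 over the 9 ratios).

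Col4a1 and Col4a2 lie head to head on mouse chromosome 8 and share a promoter, and the windows around their starts are shown. Placebo replicate 3 and praliciguat replicates 3 and 4 were highest in both genes, and also in Col15a1. Any part of the promoter in the order of the libraries was not tested. RefSeq windows on GRCm38.p6, the assembly of mm10, run from 250 bases before to 50 bases after each start. Capitals mark the 78 bases, from 11312777 to 11312854, that are in both windows, read on opposite strands.
Col4a1, chr8:11312777-11313076, minus strand: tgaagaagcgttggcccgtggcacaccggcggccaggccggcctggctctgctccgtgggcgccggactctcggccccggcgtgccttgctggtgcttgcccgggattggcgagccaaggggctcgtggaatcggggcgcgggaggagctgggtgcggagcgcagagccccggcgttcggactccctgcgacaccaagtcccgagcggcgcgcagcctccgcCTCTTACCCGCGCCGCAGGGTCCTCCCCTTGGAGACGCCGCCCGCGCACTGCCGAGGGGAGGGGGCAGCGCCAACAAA
Col4a2, chr8:11312555-11312854, plus strand: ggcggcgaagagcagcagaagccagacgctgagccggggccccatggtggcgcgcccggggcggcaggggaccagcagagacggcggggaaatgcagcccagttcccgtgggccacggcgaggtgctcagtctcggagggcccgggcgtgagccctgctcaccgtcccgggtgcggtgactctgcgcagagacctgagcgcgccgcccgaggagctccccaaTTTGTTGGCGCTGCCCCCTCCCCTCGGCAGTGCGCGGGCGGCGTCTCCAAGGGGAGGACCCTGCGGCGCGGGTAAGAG
A plain search on both strands found the letters CCCTCCCC once in each window, inside the shared stretch, and in 10.8% of all 32851 RefSeq windows. GGGCGG was found once in the Col4a1 window, 3 times in the Col4a2 window and in 35.7% of all windows. TATAAA was in neither, and in 13.6% of all windows. A match of letters is a description of the window only.

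The remaining collagens carry endostatin-like ends and coat the outer face of vessel and fibre basement membranes. Col15a1 had 48.5, 63.6, 143 and 137 CPM with praliciguat, against 72.2, 95.3, 175 and 76.4 CPM in placebo. Its spread inside each group was far wider than the gap between them (log2 fold change -0.10 ± 0.41 SE; edgeR adjusted p = 0.996). Col18a1 had 18.6, 16.6, 49.5 and 34.1 CPM with praliciguat, against 28.3, 21.1, 35.9 and 18.6 CPM in placebo (0.20 ± 0.36 SE; edgeR adjusted p = 0.988). The direction of both turned when some single libraries were left out, from -0.33 to 0.26 for Col15a1 and from -0.17 to 0.39 for Col18a1.

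Among laminin chains, Lama2 stood apart. Lama2 encodes the alpha2 chain of the main laminin of the fibre basement membrane and lies on chromosome 10 from 26981285 to 27617191. It had 29.3, 23.9, 44.5 and 36.6 CPM with praliciguat, against 52.4, 49.2, 45.2 and 60.3 CPM in placebo. The groups did not overlap, by a narrow margin between praliciguat replicate 3 and placebo replicate 3. This was 1.54-fold lower, a log2 fold change of -0.62 ± 0.18 (SE), with an adjusted p of 0.481 in edgeR. DESeq2 gave an adjusted p of 0.137. Without praliciguat replicates 3 and 4 together, the log2 fold change was -0.96 and edgeR called it (adjusted p = 0.0239); over all 20 alternatives the adjusted p ran up to 0.986.

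The other alpha chains, Lama4 of vessels and Lama5 of vessels and epithelia, behaved differently among the libraries. Lama5 had 78.1, 78.3, 56.2 and 61.2 CPM with praliciguat, against 86.8, 83.6, 60.8 and 80.5 CPM in placebo (log2 fold change -0.19 ± 0.15 SE; edgeR adjusted p = 0.984). Lama5 was lowest where the fibroblast markers were highest, in replicate 3 of each group. The remaining praliciguat libraries also followed the reverse order of the fibroblast sums. The remaining placebo libraries did not, with replicate 1 at 1097 TPM of fibroblast markers and at the highest Lama5. The relation was not tested. Lama4 averaged 44.3 ± 15.9 CPM with praliciguat and 44.2 ± 7.28 CPM in placebo (SD, n = 4 each). The beta and gamma chains Lamb1, Lamb2 and Lamc1 had log2 fold changes of -0.10, 0.00 and -0.13 (edgeR adjusted p from 0.984 to 0.999). Lamb2, the main beta chain of adult muscle, named here after its values were seen, had the smallest SD of log2 CPM of any member among praliciguat libraries, with 279 ± 2.02 CPM with praliciguat and 280.2 ± 15.5 CPM in placebo (SD, n = 4 each).

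Per length, the beta chains summed to 105 ± 11.8 TPM with praliciguat and 109 ± 9.64 TPM in placebo. The alpha chains summed to 30.3 ± 6.35 and 35.8 ± 1.66 TPM, and the gamma chain to 31.6 ± 9.29 and 35.3 ± 5.04 TPM (SD, n = 4 each). Of the summed TPM of the 3 alpha chains, Lama2 took 19.4, 17.0, 22.3 and 22.5% with praliciguat, against 27.5, 26.1, 24.2 and 31.1% in placebo. The shares did not overlap and differed by -6.96 percentage points, with -8.65 in the libraries of the lower run of title numbers (replicates 1 and 2 of each group) and -5.28 in those of the upper run (replicates 3 and 4). In the exact permutation test p was 0.0286, the smallest that 4 against 4 libraries allow, and the adjusted p over the 9 ratios was 0.129. With that limit, 1 or 2 ratios at the smallest p could not reach an adjusted p under 0.05. The shares of Lama4 and Lama5 differed by 5.13 and 1.83 percentage points (exact two-sided permutation p = 0.343 and 0.771).

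**Figure D3:**
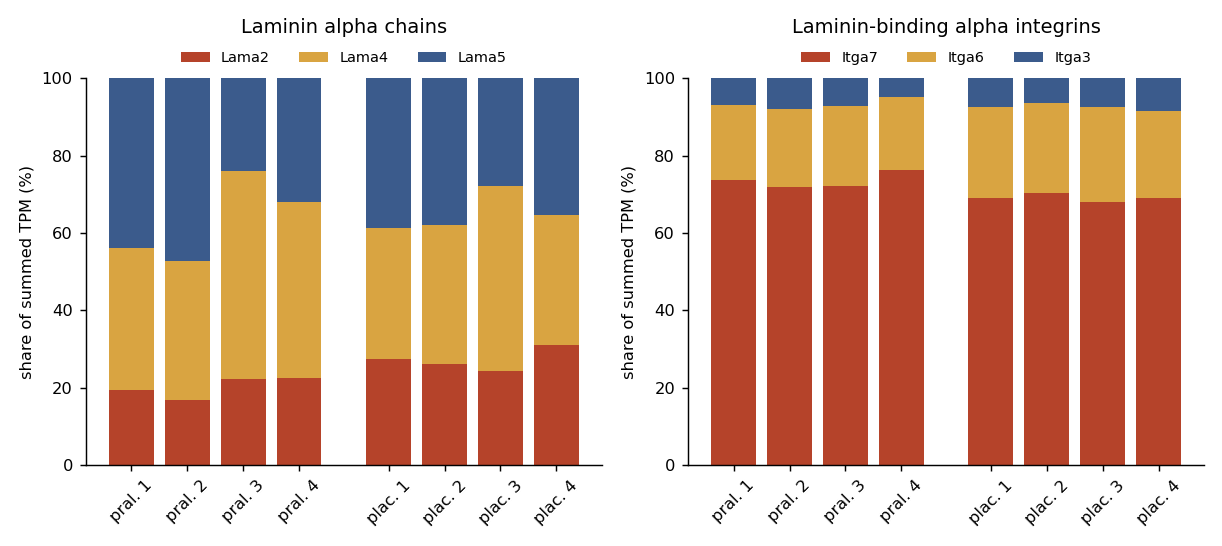
Share of each chain in the summed TPM of 3 laminin alpha chains (left) and of 3 laminin-binding integrin alpha chains (right), 1 bar per library, praliciguat left of placebo. Lama2 takes 17.0 to 22.5% in praliciguat libraries and 24.2 to 31.1% in placebo libraries, and Itga7 72.0 to 76.2% against 68.1 to 70.3%.

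Of the molecules that join the networks, Agrn separated the groups. Agrin is the large proteoglycan that motor nerves release to cluster acetylcholine receptors, and muscle and other cells make forms of it that bind laminin and dystroglycan. The gene lies on chromosome 4 from 156165290 to 156197533. It had 23.1, 24.6, 24.1 and 22.1 CPM with praliciguat, against 34.6, 34.6, 29.6 and 28.0 CPM in placebo. The praliciguat values were tightly grouped and all lay below the lowest placebo value. This was 1.35-fold lower, a log2 fold change of -0.43 ± 0.10 (SE). EdgeR gave an adjusted p of 0.291, and DESeq2 called Agrn lower (adjusted p = 0.0301). The counts are per gene and do not separate the forms of agrin. Schwann cell markers were below 0 in 6 of 6 genes, beside 44.8% of all genes tested, and 0 of the 6 were without overlap. They summed to 187, 151, 135 and 95.6 TPM in praliciguat replicates 1 to 4, against 333, 173, 169 and 150 TPM in placebo replicates 1 to 4. Only placebo replicate 1 lay outside the praliciguat range. The part of these cells in the Agrn result was not tested.

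Perlecan joins laminin and nidogen to collagen IV. Hspg2 had 271, 314, 407 and 353 CPM with praliciguat, against 323, 403, 473 and 392 CPM in placebo (log2 fold change -0.24 ± 0.15 SE; edgeR adjusted p = 0.984). The groups overlapped. Nid1 and Nid2, which bridge laminin and collagen IV, had log2 fold changes of 0.05 ± 0.28 and -0.23 ± 0.33 (SE), with edgeR adjusted p of 0.996 and 0.984. The ratio of Nid2 to Nid1 TPM averaged 0.189 with praliciguat and 0.217 in placebo (exact two-sided permutation p = 0.257).

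Nephronectin had the largest fold change below 0 among the members. It is a secreted protein with EGF-like repeats and an RGD sequence, through which it binds the integrin of Itga8 and Itgb1; the pair is known best from kidney development in the mouse. Npnt lies on chromosome 3 from 132881745 to 132950291. It had 6.32, 4.90, 7.08 and 6.25 CPM with praliciguat, against 13.3, 12.6, 11.1 and 14.0 CPM in placebo. The groups were far apart, with a gap between 7.08 and 11.1 CPM wider than the range inside either group. The level was 2.08-fold lower (log2 fold change -1.05 ± 0.14 SE; edgeR adjusted p = 0.0776). DESeq2 called Npnt lower (adjusted p = 1.42e-07) and limma-voom did not (adjusted p = 0.0643).

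The difference in Npnt was -1.22 on the log2 scale between the libraries of the lower run of title numbers and -0.91 between those of the upper run. With 1 library left out it ran from -1.13 to -0.96, and the adjusted p ranged from 1.42e-07, in DESeq2, to 0.316 over the 20 alternatives. EdgeR called it only without praliciguat replicates 3 and 4 together (log2 fold change -1.19; adjusted p = 0.0203). The window around its outermost start is shown as the gene with the lowest p of the set; the counts do not tell which start was used. Capitals mark GGGCGG on either strand.
Npnt, chr3:132950242-132950541, minus strand: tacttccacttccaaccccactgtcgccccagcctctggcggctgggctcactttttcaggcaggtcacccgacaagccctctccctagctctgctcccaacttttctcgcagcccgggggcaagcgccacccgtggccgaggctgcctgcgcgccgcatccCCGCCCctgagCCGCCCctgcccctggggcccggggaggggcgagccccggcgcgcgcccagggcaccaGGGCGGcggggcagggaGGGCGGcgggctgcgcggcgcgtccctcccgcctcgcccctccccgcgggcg
GGGCGG was found 4 times in this window, and in 35.7% of all 32851 windows. It was in 21 of the 33 windows (63.6%) held for 26 of the 35 members, some of which have more than 1 window. CCAAT was found 0 times here, against 37.4% of all windows. The letters TATAAA were also found 0 times, against 13.6%, as were the E-box letters CANNTG, against 72.3%.

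The receptor chain Itga8 was among the least abundant members. It had 2.31, 3.19, 2.22 and 1.88 CPM with praliciguat, against 6.68, 2.77, 1.78 and 3.45 CPM in placebo. Placebo replicate 1 was high and the other placebo libraries lay within or near the praliciguat range. The log2 fold change of -0.61 ± 0.38 (SE; edgeR adjusted p = 0.984) was -0.15 at its smallest with 1 library left out. Per length, Npnt was at 2.55 ± 0.466 TPM with praliciguat and 5.43 ± 0.515 TPM in placebo, and Itga8 at 0.740 ± 0.146 and 1.17 ± 0.671 TPM (SD, n = 4 each).

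**Figure D4:**
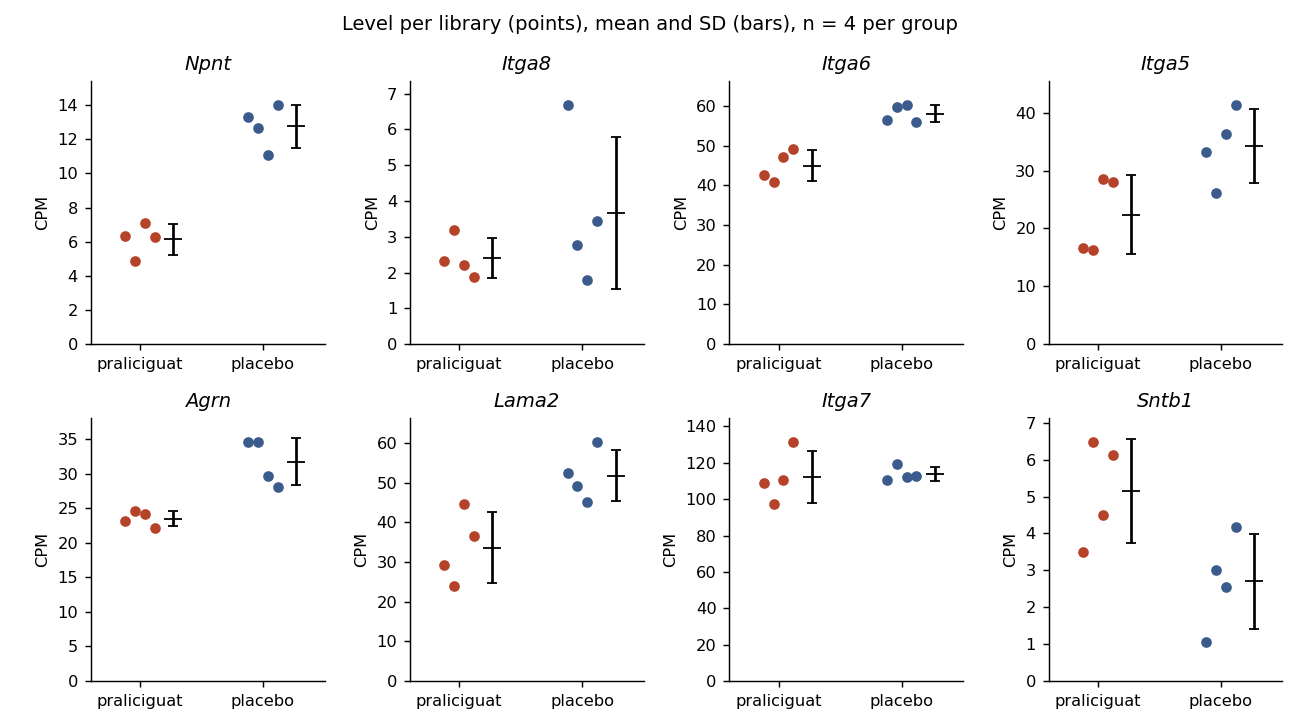
CPM of 8 members in each library (points), with mean and SD (bars, n = 4 per group), praliciguat left of placebo, all axes from 0. In Npnt, Itga6, Agrn and Lama2 the groups do not overlap, whereas in Itga8, Itga5, Itga7 and Sntb1 they do.

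Integrins, the receptors for laminin and other matrix ligands, were each at a log2 fold change below 0. Itga6 encodes the alpha6 chain, which with beta1 or beta4 binds laminins on endothelium, nerve sheath and muscle precursors, and lies on chromosome 2 from 71786886 to 71858427. It had 42.7, 40.9, 47.0 and 49.2 CPM with praliciguat, against 56.4, 59.7, 60.2 and 55.8 CPM in placebo. Every praliciguat library lay below every placebo library. This was 1.29-fold lower, a log2 fold change of -0.37 ± 0.09 (SE). EdgeR gave an adjusted p of 0.313, and DESeq2 called Itga6 lower (adjusted p = 0.0116).

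Itga5, the alpha chain of the main fibronectin receptor, had 16.6, 16.2, 28.5 and 27.9 CPM with praliciguat, against 33.1, 26.0, 36.3 and 41.3 CPM in placebo. Praliciguat replicates 1 and 2 were low, and replicates 3 and 4 lay above placebo replicate 2. The log2 fold change was -0.61 ± 0.23 (SE; edgeR adjusted p = 0.726). It was -1.06 and called by edgeR without praliciguat replicates 3 and 4 (adjusted p = 0.0313), and its adjusted p ran up to 0.999 over the 20 alternatives. Itga3, a laminin receptor chain named here after its values were seen, had a log2 fold change of -0.29 ± 0.12 (SE; edgeR adjusted p = 0.794).

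Itga7, the alpha chain of the principal laminin receptor of mature fibres, had 109, 97.3, 111 and 132 CPM with praliciguat, against 111, 119.6, 112 and 113 CPM in placebo (log2 fold change -0.02 ± 0.10 SE; edgeR adjusted p = 0.996). Its partner Itgb1 had 259.8, 235, 315 and 261 CPM, against 288, 277, 318 and 306 CPM (-0.15 ± 0.11 SE; edgeR adjusted p = 0.984). Both overlapped between the groups. Itgb4, the partner of alpha6 in epithelia and nerve sheaths, ranged from 3.55 to 13.7 CPM with praliciguat and from 6.52 to 17.4 CPM in placebo (-0.60 ± 0.43 SE). Itga1, a collagen receptor chain, had -0.26 ± 0.15 (SE; edgeR adjusted p = 0.961).

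Per length, Itga7 made up most of the laminin-binding alpha chains. Of the summed TPM of Itga3, Itga6 and Itga7, it took 73.8, 72.0, 72.3 and 76.2% with praliciguat, against 69.1, 70.3, 68.1 and 69.0% in placebo. The shares did not overlap and differed by 4.43 percentage points (p = 0.0286 in the same exact permutation test, the smallest possible; adjusted p = 0.129). The difference was 3.20 in the lower run of title numbers and 5.66 in the upper run. The CPM of Itga7 overlapped between the groups, and that of Itga6 in the same sum did not.

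Dystrophin complex genes lay close to the level of placebo. Dag1, which encodes both subunits of dystroglycan, had 365, 353, 332 and 371 CPM with praliciguat, against 243, 329, 414 and 403 CPM in placebo. The praliciguat libraries lay inside the placebo range (log2 fold change 0.03 ± 0.16 SE; edgeR adjusted p = 0.996). Dmd, dystrophin, had 124, 108, 106 and 115 CPM with praliciguat, against 99.1, 108, 118 and 142 CPM in placebo (-0.05 ± 0.12 SE; edgeR adjusted p = 0.994). Utrn, the autosomal relative of dystrophin that is concentrated at neuromuscular junctions, had 41.2, 36.2, 47.0 and 33.2 CPM, against 48.8, 42.5, 45.2 and 41.2 CPM (-0.17 ± 0.12 SE; edgeR adjusted p = 0.984). All 3 overlapped between the groups.

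The ratio of Utrn to Dmd TPM was 0.137, 0.139, 0.176 and 0.118 with praliciguat, against 0.197, 0.161, 0.156 and 0.117 in placebo. It differed by -0.13 on the log2 scale (exact two-sided permutation p = 0.514). Dmd has long and short transcripts, and the deposited mean transcript length of its row lay between 5010 and 5244 bases over the 8 libraries, so its TPM rests on how reads were divided among them. For Utrn the table lists a single length of 12382 bases.

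The sarcoglycans and sarcospan form the part of the complex beside dystroglycan in the membrane. Sgca, which is restricted to striated muscle, was the most abundant member of all 35 per length, at 207 ± 9.93 TPM with praliciguat and 211 ± 16.2 TPM in placebo (SD, n = 4 each). Sgca, Sgcb, Sgcd and Sspn had log2 fold changes of 0.01 ± 0.10, 0.13 ± 0.10, 0.08 ± 0.14 and 0.11 ± 0.13 (SE; edgeR adjusted p from 0.984 to 0.998). Dtna, alpha-dystrobrevin, which binds dystrophin and syntrophins, had 0.10 ± 0.13 (SE; edgeR adjusted p = 0.984).

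Sntb1, beta1-syntrophin, an adaptor that docks signalling proteins on the complex, was the exception in size. It had 3.49, 6.49, 4.49 and 6.14 CPM with praliciguat, against 1.07, 3.01, 2.54 and 4.17 CPM in placebo. Praliciguat replicate 1 lay below placebo replicate 4, so the groups overlapped, and placebo replicate 1 was lowest. The level was 1.90-fold higher (log2 fold change 0.93 ± 0.37 SE; edgeR adjusted p = 0.779). With 1 library left out the log2 fold change ran from 0.67 to 1.22. It no longer had an unadjusted p under 0.05 without placebo replicate 2 or 3, or without praliciguat replicate 2 or 4.

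**Figure D5:**
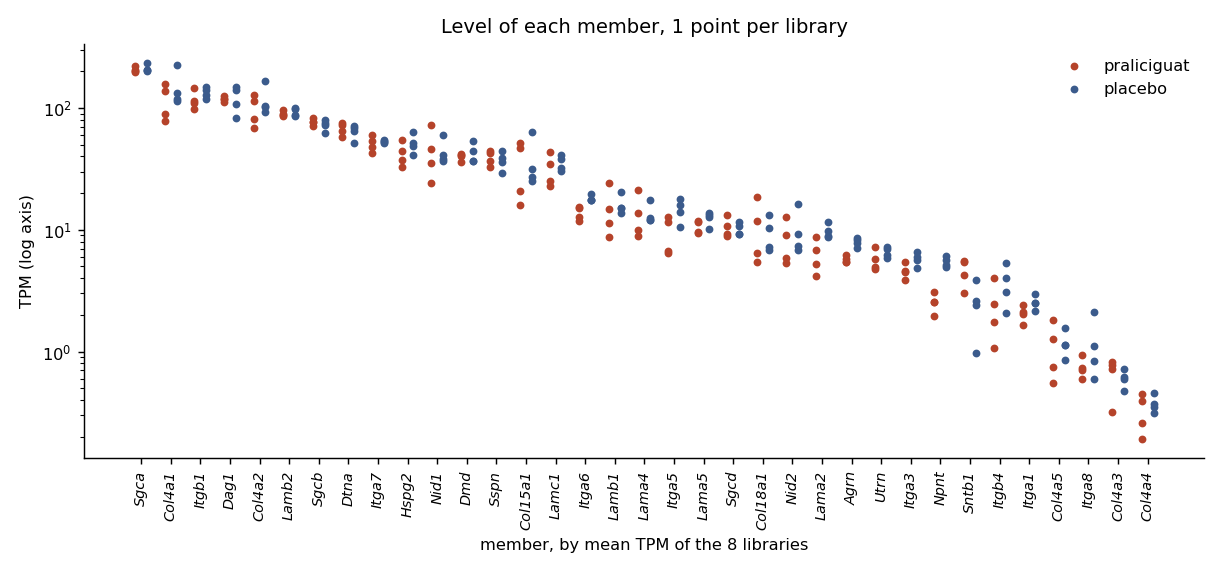
TPM of each member in each library (1 point per library, log axis), ordered by the mean over the 8 libraries, praliciguat left of placebo within each gene. Sgca, Col4a1, Itgb1, Dag1 and Col4a2 are highest and Itga8, Col4a3 and Col4a4 lowest, a span from 209 to 0.348 TPM in the mean.

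In order of mean TPM over the 8 libraries, Sgca (209 TPM) was followed by Col4a1 (132), Itgb1 (125.5), Dag1 (119) and Col4a2 (107). Sgca and Col4a1 met only in placebo replicate 3 of Col4a1, at 223.8 TPM, and the last 4 of these overlapped in their ranges over libraries. Itga7 stood at 52.2 TPM, Hspg2 at 46.8, Nid1 at 44.2 and Dmd at 41.3. Lama2 at 8.01, Agrn at 6.81 and Npnt at 3.99 TPM ranked 24, 25 and 28 of 35, and Itga6 at 15.9 TPM ranked 16.

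Other genes of the pathway were taken from 6 lists of 105 genes, of which 96 were tested. These lists were also chosen with earlier results of these data known, so their shares are a description. With edgeR, 0 passed over all genes tested in either direction. At an unadjusted p under 0.05, 9 of 96 were lower (9.375%, against 3.78% of all genes tested) and 3 higher (against 1.95%). In 7 of 96 (7.29%, against 2.54%) every praliciguat library lay below every placebo library. DESeq2 called 4 lower and 0 higher, against 0.84% and 0.111% of all genes. Of other basement membrane genes, 31 were tested and 22 had a fold change below 0 (median -0.18). Over all genes tested, 44.8% were below 0, a share that also stands beside the counts of the lists that follow. Fras1, a large basement membrane protein of the Fraser complex, which binds nephronectin in the mouse embryo, had 1.22, 0.816, 2.54 and 1.95 CPM with praliciguat, against 5.21, 5.41, 2.68 and 6.57 CPM in placebo. The groups of Fras1 did not overlap, by a narrow margin between praliciguat replicate 3 and placebo replicate 3. Its log2 fold change was -1.59 ± 0.39 (SE, edgeR adjusted p = 0.341, DESeq2 adjusted p = 0.0134). Frem1 and Frem2 of the same list, named after their values were seen, overlapped between the groups. Their log2 fold changes were -0.55 ± 0.48 and -0.77 ± 0.67 (SE, edgeR adjusted p = 0.984 for both).

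Vwa1, a matrix protein that binds perlecan, was at 10.4 ± 1.42 CPM with praliciguat and 16.1 ± 2.36 CPM in placebo (log2 fold change -0.64 ± 0.14 SE; edgeR adjusted p = 0.295), without overlap, and DESeq2 called it lower (adjusted p = 0.0180). Papln, papilin, named after its values were seen as the remaining DESeq2 call, was at 1.85 ± 0.790 CPM with praliciguat and 4.76 ± 1.12 CPM in placebo, also without overlap (-1.35 ± 0.35 SE; edgeR adjusted p = 0.364; DESeq2 adjusted p = 0.0280). Smoc1, a SPARC-related matrix protein, had 0.97 ± 0.39, and Col6a6, a collagen VI chain, 0.32 ± 0.31 (SE). Of other integrins, 7 of 10 tested were below 0 (median -0.21). Itga10, a collagen receptor chain, was at 1.91 ± 0.418 CPM with praliciguat and 4.53 ± 1.47 CPM in placebo (-1.24 ± 0.28 SE; edgeR adjusted p = 0.295), and DESeq2 called it lower. Itgb1bp2, melusin, had -0.24 ± 0.13, and Itgb5 and Itgb6 0.18 ± 0.19 and 0.02 ± 0.15 (SE).

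Genes that assemble collagen IV were split, with 7 of 13 below 0 (median -0.03). P4ha1 and P4ha2, prolyl hydroxylases, had -0.40 ± 0.16 and -0.22 ± 0.10, and Lox, a crosslinking oxidase, and Colgalt1, a collagen galactosyltransferase, 0.58 ± 0.42 and 0.10 ± 0.08 (SE). Of genes that link integrins to actin, with the laminin receptor Bcam, 10 of 15 were below 0 (median -0.09). Bcam was at 48.3 ± 4.61 CPM with praliciguat and 66.9 ± 11.9 CPM in placebo without overlap (-0.47 ± 0.13 SE; edgeR adjusted p = 0.427). Lims1, an adaptor of integrin-linked kinase, had -0.37 ± 0.14, and Tln2 and Vcl, talin and vinculin, 0.11 ± 0.12 and 0.07 ± 0.12 (SE).

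The rest of the dystrophin complex had 5 of 10 tested genes below 0 (median 0.03). Sgce, epsilon-sarcoglycan, had a log2 fold change of 0.21 ± 0.19, Drp2, a dystrophin-related protein of Schwann cells, -0.73 ± 0.43, and Dtnb -0.31 ± 0.20 (SE). Of the enzymes that put sugars on dystroglycan, 6 of 17 were below 0 (median 0.04). Pomt1 and Pomk, which act early on the laminin-binding sugar chain, had 0.32 ± 0.14 and 0.26 ± 0.11 (SE), and the lower of their edgeR adjusted p-values was 0.789, for Pomk.

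Markers of the cells that the muscle could hold differed between the groups in part. Over all genes tested, 44.8% were below 0, 2.54% lay lower without overlap and 1.32% higher without overlap. Muscle fibre markers were abundant as the tissue label says, with 8 of 8 detected and sums of 173915 to 184366 TPM with praliciguat and 168989 to 180290 TPM in placebo. Markers of slow fibres summed to 447 to 707 TPM with praliciguat and to 1330 to 3241 TPM in placebo, with 7 of 8 genes without overlap. Endothelial markers, 10 of 10 below 0, summed to 275 to 400.4 TPM with praliciguat and to 379.5 to 501 TPM in placebo. Smooth muscle and pericyte markers, 9 of 10 below 0, summed to 428 to 582 and 518 to 803 TPM, and satellite cell markers, 5 of 6 below 0, to 22.3 to 31.9 and 32.2 to 35.2 TPM. The sums of slow fibre and satellite cell markers did not overlap between the groups, and those of the endothelial and smooth muscle lists did. The satellite cell gap was narrow, between 31.9 TPM in praliciguat replicate 4 and 32.2 TPM in placebo replicate 3. By CPM, 0 of the 6 satellite cell markers were without overlap. Chodl had the largest difference of that list, with means of 7.51 TPM with praliciguat and 12.8 TPM in placebo. Macrophage markers, 0 of 6 below 0, summed to 33.9 to 350.2 and 46.7 to 133 TPM. The 350.2 TPM was praliciguat replicate 3, and praliciguat replicates 1, 2 and 4 summed to 59.3, 33.9 and 82.8 TPM. No marker of these lists was at 0 in all libraries. The part of these cells in the values of Npnt, Agrn, Itga6 and Lama2 was not tested.

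Adipocyte markers, 0 of 5 below 0 beside 44.8% of all genes tested, summed to 2406 to 5520.0 TPM with praliciguat and to 2030.3 to 4235 TPM in placebo. Tendon markers, 5 of 5 below 0, summed to 36.2 to 299.9 and 199 to 319.7 TPM, and red blood cell markers, 5 of 5 below 0, to 634 to 1534 and 669 to 1776 TPM. Keratinocyte markers, with 1 of 4 tested, summed to 1.37 to 4.89 and 1.25 to 2.46 TPM. All 4 of these ranges overlapped between the groups.

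Some counts above rested on a few libraries. Without praliciguat replicates 3 and 4, 19 members lay lower without overlap in place of 4, beside 14.3% of all genes, and edgeR called Npnt, Lama2 and Itga5, but that fit sets 2 praliciguat libraries of the lower run of title numbers against placebo libraries of both runs. Without praliciguat replicate 3 alone, 10 members were lower at an unadjusted p under 0.05 in place of 6, beside 6.39% of all genes in place of 3.78%. In the same fit 7 members in place of 4 lay lower without overlap, beside 5.83% of all genes in place of 2.54%. Within the lower run 25 of 35 members had a difference below 0, within the upper run 21, and 15 in both. The same shares over all genes are not given here, so these counts do not show whether the runs were alike. The labels do not say what the title numbers mean.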

How the data were processed

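RNA was sequenced from 8 libraries, and each has its own deposited table of 24848 genes. Per the submitters' processing notes, the tools were FastQC, Trimmomatic, STAR 2.5.3a and RSEM 1.2.28 on build mm10; per the labels' protocols, the kit was stranded, and no source used here gives the strand setting of counting. Per the file headers, the authors' expected count is an estimate of reads per gene. The deposited TPM column, per the file headers, is scaled to transcript length within a library and was used to compare genes. The deposited FPKM values were not used. The other deposited columns, the authors' length and effective length, served as length values and as an offset.

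Expected counts, rounded, went through filterByExpr, TMM scaling and the robust quasi-likelihood F test of edgeR 4.0.16 (R 4.3.3), with Benjamini-Hochberg adjustment over 13569 genes and a threshold of 0.05. CPM values use TMM-scaled library sizes; the SE of a fold change is its size divided by the square root of F. For 9 ratios of TPM, all 70 groupings of the libraries gave a two-sided exact permutation p, adjusted over the 9. A 0 would allow up to 0.0941 to 0.142 CPM per library, from 3 counts, for counting error only. No libraries of a group agreed within sampling noise (chi-square per degree of freedom 21.9 to 136). In simulated counts of 13409 genes, the test found 65 of 98 genes given a log2 change of 1 and 89 of 97 given 2, and called 7 unchanged ones. The simulation drew each gene on its own, without the pattern that genes share across these libraries, so its rates may not hold for the real counts.

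Members, lists and tests were chosen with earlier results of these data known. Values in every library were given for Npnt, Itga8, Col4a1, Col4a2, Lama2, Itga7, Itgb1, Dag1, Dmd and Utrn, and for the 2 members of lowest p in each role. From each pathway list, at most 2 higher and 2 lower genes were named, by p; a few of these are not reported here. Replicates were numbered in accession order. Coordinates and promoter windows are RefSeq's on GRCm38.p6; 35 members matched. The alternatives were 20 for gene results and 10 for ratios, with limma 3.58.1 and DESeq2 1.42.0 among the tools.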

Additional observations from a re-analysis of the deposited data

Results flagged for a closer look

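Of 88 groups of 4 libraries examined, 1 per member or ratio and treatment, 4 had a library far from the other 3, about as many as the 1 in 20 that chance gives. In placebo, Lama4 was at 55.0 CPM in replicate 3, against 39.7 to 41.7 CPM in the others, and its share of the laminin alpha chains was 48.0% there, against 33.7 to 36.0%. Sgca was at 214.5 CPM in placebo replicate 2, against 169 to 175 CPM. Dtna was at 73.1 CPM in placebo replicate 1, against 101 to 102 CPM.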

How the results depend on the processing

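No paired analysis was possible because replicate numbers follow accession order and pair nothing across groups. At the adjusted p of 0.05, members called lower were 0 in all fits but DESeq2 (3) and the fit without praliciguat replicates 3 and 4 (3). Genes called lower numbered 114 with DESeq2 (15 higher), 2 with limma-voom, 3 with the run of title numbers as a block, 11 at an adjusted p under 0.1, and 79 without praliciguat replicates 3 and 4 (6 higher), against 0; with 1 library left out, 0 to 5. Without praliciguat replicates 3 and 4, 14 members were lower (9.10% of all genes) and 0 higher at an unadjusted p under 0.05, 19 lay lower (14.3% of all genes) and 2 higher without overlap, and the median was -0.26. At an unadjusted p under 0.01, 0 were higher. With 1 library left out, 4 to 10 members were lower (2.93 to 6.39% of all genes) and 0 to 1 higher at an unadjusted p under 0.05, 4 to 7 lay lower (3.32 to 5.83% of all genes) and 0 to 1 higher without overlap, and the median ran from -0.27 to -0.026. Directions turned for Dag1 (-0.10, range -0.10 to 0.13), Dmd (0.062, range -0.11 to 0.062), Itga7 (0.0022 and 0.040, range -0.11 to 0.040), Col15a1 (0.063, 0.13 and 0.26, range -0.33 to 0.26) and Col18a1 (-0.17, range -0.17 to 0.39) without 1 library, and for Col18a1 (-0.56), Lama5 (0.0037) and the Lama4 share (-1.57) without praliciguat replicates 3 and 4. The Lama5 share ran from -1.65 to 6.10 (turned at -0.54, -0.56 and -1.65) and the Lamb1 share from -3.07 to 0.50 with 1 library left out. The cause was not tested in any of these. Npnt, Agrn, Itga6 and Lama2 lay lower without overlap in all 20 alternatives, but leaving libraries out could not bring overlap except through rescaling. Npnt, Agrn, Itga6, Lama2, Itga5, Itga8, Col4a1, Col4a2, Hspg2, Itgb1 and Utrn kept a fold change below 0 in all 20. All 20 drew on the same libraries. At this depth low members such as Itga8 and Sntb1 rest on few reads.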
